A study of Mus musculus with 16 samples.

Results

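Livers of mice lacking both cryptochromes were compared with wild-type livers after oxaliplatin given at circadian time 8 (CT8). The comparison used 8 of the 16 libraries of the study: the 4 count columns named for the cryptochrome double knockout at CT8 and the 4 named for the wild type at CT8, across all genes. The other 8 libraries, of the same genotypes dosed at CT16, entered the fit and are used at the end to set the same genotype difference beside it. All mice were male, 12 to 16 weeks old, and were given the DNA-crosslinking platinum drug oxaliplatin by intraperitoneal injection at 12 mg/kg. The WT group consisted of wild-type C57BL/6J mice. The CryDKO group consisted of Cry1-/-Cry2-/- mice, bred from heterozygotes on a C57BL/6J background and genotyped by the submitters, in which every cell carries the deletion. Mice had been synchronized for 3 weeks to a cycle of 12 h light and 12 h darkness and were in constant darkness from 3 days before dosing. The drug was described both as a single dose and as dosing on 3 days, the sources used here do not give the hour at which livers were taken, and no group without the drug was analysed, so effects of genotype alone and of genotype on the drug response cannot be told apart. Poly(A)-selected RNA was sequenced as read pairs. Nothing in the labels ties the 4 libraries of a group to separate animals, and p values therefore measure only the spread between libraries, part of which may be technical.

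Cryptochromes are the late repressors of the mammalian clock. The activators CLOCK and BMAL1 (gene Arntl) bind E-box elements and drive the Per, Cry, Nr1d (REV-ERB) and Dbp genes. PER and CRY proteins return to the nucleus and silence that drive, while REV-ERB and ROR proteins close a second loop on Arntl. In the liver, the clock paces the synthesis of bile acids, glucose and lipids and the enzymes that clear drugs. CRY proteins are also known to bind the glucocorticoid receptor and to damp the cAMP response to glucagon. A further layer is set by growth hormone: its pulses in males, acting through STAT5, keep a male pattern of cytochromes P450 and major urinary proteins.

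Genotype marked a large part of the liver transcriptome at CT8. Of 14484 genes tested, 5649 (39.0%) passed the quasi-likelihood test of edgeR at a Benjamini-Hochberg adjusted p under 0.05, the meaning of "rose", "fell" and "called" below. In CryDKO 2706 were higher (18.7%) and 2943 lower (20.3%). Differences of at least 4-fold were more often falls, 433 against 126 rises. The 4 CryDKO values lay wholly above or below the 4 WT values in 5682 genes (39.2%), and 4817 of the called genes were among them. Expression is given as CPM, reads scaled to a common library total with the trimmed mean of M values. Of 8 values for a gene, the 4 of WT are those of libraries 1, 2, 3 and 4 and the 4 of CryDKO those of libraries 9, 10, 15 and 16, in that order. Changes are log2 of CryDKO over WT, with their standard error. The median change of all tested genes was -0.016, and each gene list below is to be read against that median and against the shares of 18.7% and 20.3%.

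The libraries of the groups differed in more than single genes. Library totals overlapped, at 21083769 to 26512390 reads in WT and 21210401 to 23618273 in CryDKO. The 10 most abundant genes took 12.9% to 14.6% of reads in WT and 19.8% to 21.7% in CryDKO, and long noncoding RNAs took 0.892% to 1.17% and 0.376% to 0.820%. The share of 0.820% was that of CryDKO library 16, and the other CryDKO libraries had 0.376% to 0.406%. Of 1371 tested long noncoding RNA genes 704 fell and 25 rose (median -1.19), against 2041 falls and 2658 rises among 12700 protein-coding genes (median 0.06). Among protein-coding genes the median change went from -0.30 in the 1 of 5 near-equal bins with the lowest transcript GC content to 0.31 in the bin with the highest. At CT16 the corresponding medians were -0.26 and 0.31. The long noncoding RNA share there was 0.422%, 0.535% and 0.534% in WT libraries 5, 6 and 7. It was 0.985% in WT library 8 and 0.363% to 0.426% in CryDKO. A low share of these RNAs was thus not confined to CryDKO. The 10 most abundant genes took 14.3% to 17.8% of reads in WT at CT16 and 19.36% or more in CryDKO. Whether these differences in library makeup have a part in the gene results was not tested beyond 2 recalculations. With scaling by library size alone the median of all genes moved by -0.341, and 961 genes rose and 5127 fell, so that 15.8% of calls were rises, against 47.9% with the scaling used here. With the trend on GC content removed, 2345 rose and 2532 fell, and 4098 of the 5649 calls were kept. All directions below are relative to the scaling used here.

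**Figure D1:**
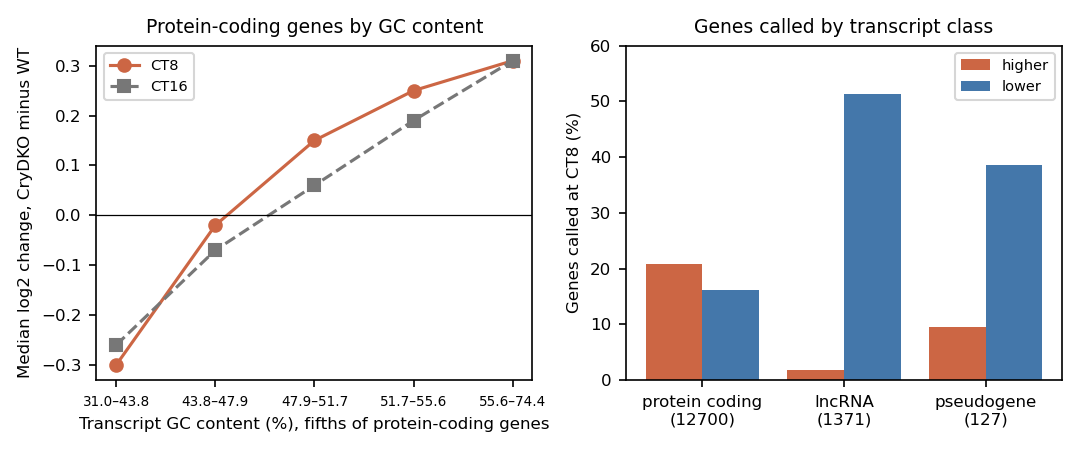
Left, the median log2 change (CryDKO minus WT) of protein-coding genes in 5 near-equal bins of transcript GC content, at CT8 (circles) and CT16 (squares). Right, the share of genes called higher or lower at CT8 by transcript class, with tested genes in brackets. The medians climb from -0.30 to 0.31 at CT8, and 704 of 1371 long noncoding RNA genes were lower.

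The 2 deleted genes moved in opposite directions. Cry2 stood at 47.4, 53.01, 39.9 and 45.2 CPM in WT and at 23.1, 28.98, 25.5 and 33.3 CPM in CryDKO, a log2 change of -0.74 ± 0.14. Every CryDKO library was below every WT library. Cry1 stood at 15.9, 9.22, 9.40 and 14.1 CPM in WT and at 25.6, 26.5, 27.1 and 20.5 CPM in CryDKO (1.04 ± 0.17), here with every CryDKO library above every WT library. The Benjamini-Hochberg adjusted p of edgeR was 0.000503 for Cry2 and 0.000199 for Cry1. Reads summed over a gene do not show which exons were lost, so these counts do not check the knockout, and CryDKO stands for the label. Reads of 4 Y-linked genes together lay at 160.7 to 217 CPM in WT and 95.1 to 121 CPM in CryDKO. Xist lay at or under 0.712 CPM in all 8 libraries, as in male tissue.

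Among the other clock genes, the activator Arntl and several E-box repressors were higher in CryDKO, while Per2 and Per3 were lower. Arntl stood at 2.06, 1.67, 1.89 and 3.53 CPM in WT and at 8.63, 5.48, 14.3 and 8.58 CPM in CryDKO, a rise of 2.01 ± 0.30. Its lowest CryDKO value was above its highest WT value. Clock, its partner, was not called (-0.03 ± 0.15), and the paralog Arntl2 fell (-1.24 ± 0.40). Bhlhe41, encoding the E-box repressor DEC2, had 2.24, 3.31, 2.77 and 2.36 CPM in WT and 8.37, 4.04, 8.19 and 5.30 CPM in CryDKO (1.27 ± 0.25), with no overlap. Ciart, which encodes the repressor CHRONO, had 31.4, 46.3, 25.9 and 28.4 CPM in WT and 43.6, 76.1, 52.4 and 60.4 CPM in CryDKO (0.82 ± 0.22), and here the groups overlapped. Per1 rose (0.60 ± 0.19) and overlapped too, from 121, 106, 80.04 and 65.97 CPM in WT to 119, 152, 125 and 169 CPM in CryDKO. Per3 went the other way, from 118, 164, 111 and 130.1 CPM in WT to 41.6, 35.9, 49.5 and 82.5 CPM in CryDKO (-1.32 ± 0.27), all CryDKO values below all WT values. Per2 had 103, 104, 78.4 and 90.6 CPM in WT and 48.2, 66.6, 52.3 and 77.9 CPM in CryDKO (-0.62 ± 0.22), also with no overlap. Of the 8 tested repressors of the loop 4 rose, 3 fell and Bhlhe40 was not called (0.25 ± 0.24). That balance turned to 2 rises and 3 falls with library size alone, and to 3 and 3 with the GC trend removed.

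The REV-ERB and ROR loop and the D-box arm moved less. Nr1d1, which encodes REV-ERB alpha and represses Arntl, was not called, at 17.9, 43.7, 26.6 and 25.6 CPM in WT and 30.8, 24.9, 36.7 and 46.05 CPM in CryDKO (0.28 ± 0.29). Nr1d2, its paralog, fell (-0.58 ± 0.17), as did the activator Rora (-0.37 ± 0.14). The D-box activator Dbp had 52.6, 96.2, 76.1 and 74.1 CPM in WT and 66.1, 80.96, 88.4 and 103 CPM in CryDKO and was not called (0.18 ± 0.18). Its relative Hlf (-0.20 ± 0.19) and the D-box repressor Nfil3 (0.15 ± 0.23) were not called either, while Tef, of the same family, fell (-0.39 ± 0.15). Among targets of these PAR-bZIP factors, Cyp2a5, a nicotine and coumarin hydroxylase, fell (-1.16 ± 0.24), Por, the reductase that serves all microsomal P450 enzymes, rose (0.60 ± 0.21), and Alas1, Usp2, Wee1 and Ces2e were not called (-0.21 ± 0.31, 0.27 ± 0.15, -0.07 ± 0.19 and 0.18 ± 0.43). Several of the smaller changes lay near the threshold of edgeR's quasi-likelihood test and lost their call when 1 library was left out. A lost call need not mean a changed estimate: Tef stood at -0.38 without WT_CT16 library 6, against -0.39 as reported. Per1 lost its call without WT_CT8 library 4 or CryDKO_CT8 library 16 (adjusted p = 0.0510 to 0.0591), Per2 without WT_CT8 library 1, 2 or 4 or CryDKO_CT8 library 9 or 15 (adjusted p = 0.0535 to 0.104) and Arntl2 without WT_CT8 library 4 or CryDKO_CT8 library 10 or 15 (adjusted p up to 0.0611). Rora lost it without WT_CT8 library 1, 2 or 4 or CryDKO_CT8 library 9, 10 or 16 or WT_CT16 library 6 or 7 or CryDKO_CT16 library 13 (adjusted p = 0.0501 to 0.159), Tef without WT_CT8 library 1, 2, 3 or 4 or CryDKO_CT8 library 9, 10, 15 or 16 or WT_CT16 library 5, 6 or 7 or CryDKO_CT16 library 11, 12 or 13 (adjusted p = 0.0515 to 0.197) and Por without WT_CT8 library 1, 2 or 4 or CryDKO_CT8 library 15 or 16 (adjusted p = 0.0530 to 0.0951). With the GC trend removed Per1, Nr1d2, Rora and Por were no longer called, and with scaling by library size alone Per1, Ciart and Por were not, while Hlf was called lower.

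The DNA just before these genes differs in the elements it holds, and 4 windows picked by hand are shown. Tef, which fell and has the E-box, is not among them, so the 4 do not show how motifs and directions go together. The windows are the 250 bases before the annotated start site in RefSeq on the build GRCm38.p6, on the strand of the gene, with matches in capitals. The motifs searched were the E-box CACGTG, which reads alike on both strands, the D-box TTATGTAA or TTACGTAA on either strand and the ROR element TAGGTCA on either strand. Bhlhe41 (chr6:145865421-145865670), Ciart (chr3:95882229-95882478) and Cry1 (chr10:85185055-85185304), which rose, hold the E-box, and Per3 (chr4:151044666-151044915), which fell, holds the D-box. All 4 lie on the minus strand.
Bhlhe41: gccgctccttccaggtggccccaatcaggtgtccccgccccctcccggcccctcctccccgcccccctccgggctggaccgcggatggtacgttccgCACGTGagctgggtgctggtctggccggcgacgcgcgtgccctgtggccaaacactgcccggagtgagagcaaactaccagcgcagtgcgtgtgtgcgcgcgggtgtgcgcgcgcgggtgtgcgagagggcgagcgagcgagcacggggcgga
Ciart: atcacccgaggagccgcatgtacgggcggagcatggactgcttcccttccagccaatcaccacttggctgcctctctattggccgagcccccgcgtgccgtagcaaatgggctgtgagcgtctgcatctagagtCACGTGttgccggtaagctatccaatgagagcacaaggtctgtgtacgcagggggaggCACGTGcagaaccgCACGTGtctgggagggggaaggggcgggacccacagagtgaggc
Cry1: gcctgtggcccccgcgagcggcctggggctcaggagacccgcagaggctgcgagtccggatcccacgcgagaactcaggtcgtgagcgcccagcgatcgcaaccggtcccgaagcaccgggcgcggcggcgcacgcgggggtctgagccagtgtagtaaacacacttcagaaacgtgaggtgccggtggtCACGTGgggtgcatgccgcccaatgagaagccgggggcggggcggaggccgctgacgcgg
Per3: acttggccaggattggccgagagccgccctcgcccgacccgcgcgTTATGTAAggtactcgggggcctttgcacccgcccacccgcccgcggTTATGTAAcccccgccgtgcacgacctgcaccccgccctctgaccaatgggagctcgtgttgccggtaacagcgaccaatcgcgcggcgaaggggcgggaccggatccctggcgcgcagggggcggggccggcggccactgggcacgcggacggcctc
Counted back from the start site, the E-box begins at -153 in Bhlhe41, at -116, -58 and -44 in Ciart and at -60 in Cry1, and the D-box at -205 and -158 in Per3. Of the 25 tested genes of these clock lists 21 had a window. The E-box stood in 4 of 6 that rose (Per1, with the 3 above), in 1 of 7 that fell (Tef) and in 0 of 8 that were not called, and in 6.02% of all 32851 windows. The D-box stood in Per3 alone and the ROR element in Nfil3 alone, against 0.931% and 2.23% of all windows. A match is a description of the letters and not a measured binding site.

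**Figure D2:**
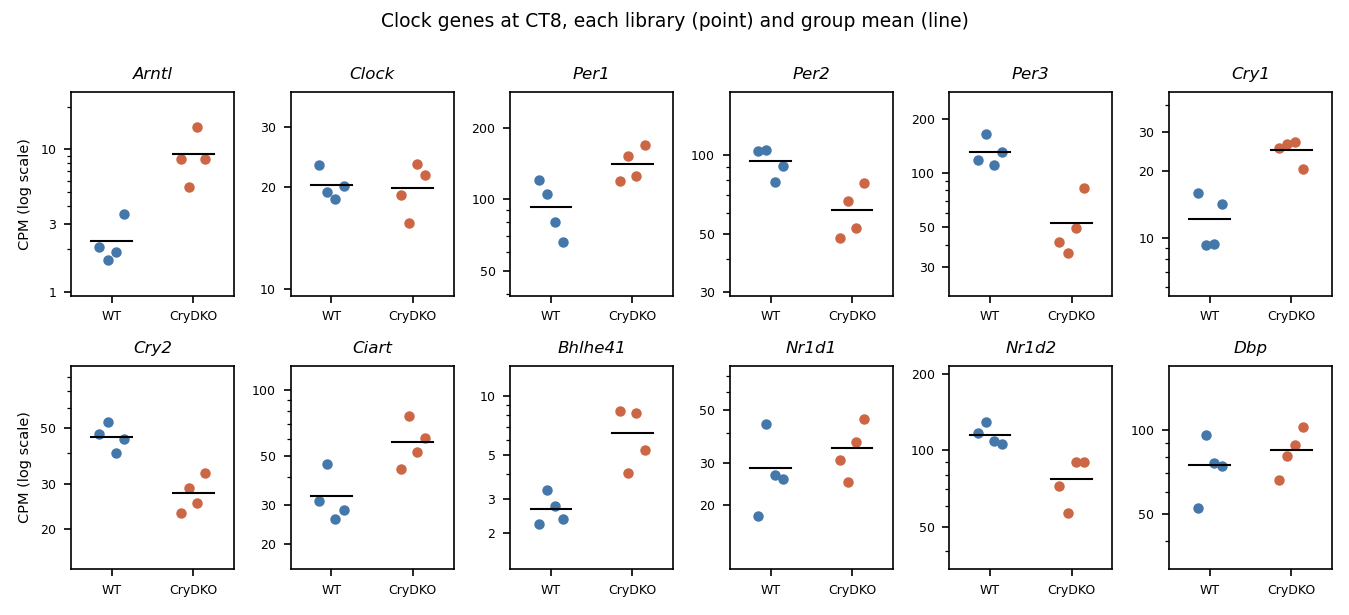
CPM of 12 clock genes on log axes, 1 point per library and a line at the mean of each group of 4. Arntl, Cry1 and Bhlhe41 separate upward and Cry2, Per2, Per3 and Nr1d2 downward, while Clock, Nr1d1 and Dbp overlap.

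The most abundant changed transcripts were those of secreted liver proteins, and all 10 named for abundance rose. The 10 together took 93230.1 to 115205 CPM in WT and 191857 to 254116 CPM in CryDKO. Albumin (Alb) had 33147, 35514, 39462 and 35688 CPM in WT and 72226, 102145, 82719 and 75371 CPM in CryDKO (1.21 ± 0.23). The iron carrier transferrin (Trf, 0.86 ± 0.22), the heme and hemoglobin scavengers Hpx (1.25 ± 0.25) and Hp (1.15 ± 0.27), the fibrinogen chains Fga (1.22 ± 0.27) and Fgb (1.22 ± 0.27), complement C3 (1.07 ± 0.25), the apolipoproteins Apoe (0.79 ± 0.22) and Apoa1 (0.83 ± 0.26) and the fetuin gene Ahsg (0.96 ± 0.22) rose in the same direction. In each of the 10 the CryDKO values lay above all WT values. Of 13 hepatocyte markers 9 rose, 0 fell and 4 did not pass (median 0.84), and Hnf4a, a master regulator of hepatocyte identity, was among the rises (0.84 ± 0.17). In edgeR's quasi-likelihood test Apoa1 was not called without WT_CT8 library 1 (adjusted p = 0.0543) nor with scaling by library size alone, and Apoa1 and Apoe were not called with the GC trend removed.

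**Figure D3:**
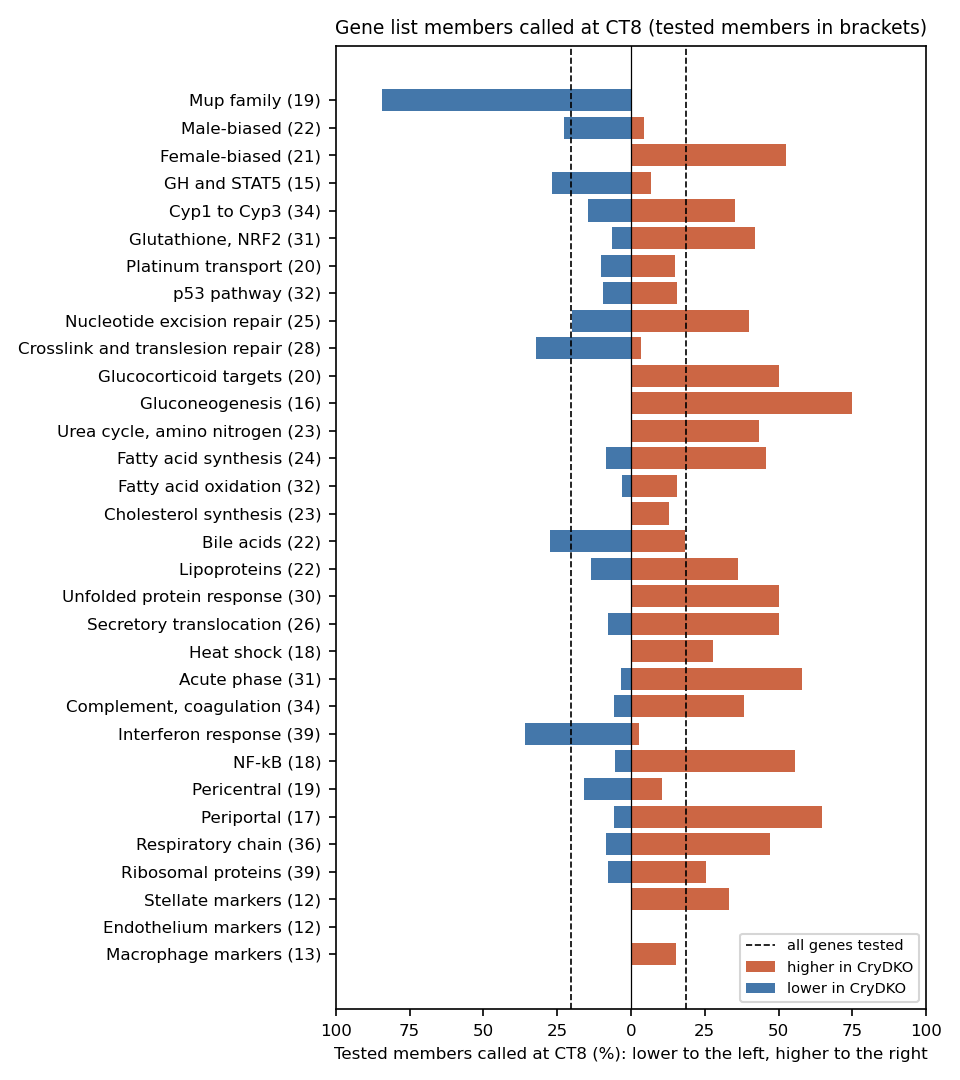
Share of the tested members called higher (right) or lower (left) in CryDKO at CT8, for 32 of the 57 gene lists, each with at least 12 tested members, with the number tested in brackets and dashed lines at 18.7% and 20.3%, the shares over all genes. Among the lists drawn, Mup genes reach the farthest left (16 of 19) and gluconeogenesis the farthest right (12 of 16).

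Genes of the male and female liver programmes had some of the largest changes, Mup genes downward and female-biased genes upward. Major urinary proteins are pheromone carriers that male mouse liver makes in bulk under growth hormone pulses. Summed over 24 Mup genes, the WT libraries had 10659, 10601, 14546 and 14395 CPM and the CryDKO libraries 718, 3978, 4679 and 1505 CPM. All CryDKO sums were lower, and they differed several-fold among themselves. Of 19 tested members 16 fell and 0 rose (median -4.55). The falls included Mup17 (-7.09 ± 1.21), Mup15 (-5.12 ± 1.11), Mup12 (-4.95 ± 0.97), Mup16 (-4.55 ± 1.04), Mup11 (-4.05 ± 1.12) and Mup21 (-3.66 ± 1.04) and the pseudogene transcripts Mup-ps16 (-7.63 ± 0.80) and Mup-ps12 (-5.46 ± 0.56). Mup copies are nearly identical, so reads may be split among them and the value of any 1 copy is uncertain.

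Every called female-biased gene rose. Of 21 tested members 11 rose, 0 fell and 10 did not pass (median 2.34). Cyp2b9, a female-biased P450 of the family that responds to phenobarbital, had 1.73, 1.45, 1.59 and 0.375 CPM in WT and 329.7, 126, 149 and 331 CPM in CryDKO (7.50 ± 0.73). Cyp2c40, of a P450 cluster with close copies, had 3.27, 4.89, 4.82 and 2.78 CPM in WT and 28.1, 41.7, 36.8 and 25.8 CPM in CryDKO (3.07 ± 0.45). In both genes the lowest CryDKO library was several-fold above the highest WT library. Cyp2c69, of the same cluster, rose without overlap as well (3.41 ± 0.73). Cyp2b13, a close copy of Cyp2b9, had 0 reads in the 4 WT libraries and 2980, 6, 3 and 3705 reads in the CryDKO libraries, and 2 libraries carried nearly all of it. With the WT group set to 3 reads, the limit that a count of 0 allows, the level pooled over the 4 CryDKO libraries was at least 2942-fold higher. Libraries 9 and 16 set this bound, and it does not hold for libraries 10 and 15, with 6 and 3 reads. Cyp2b9 and Cyp2b13 can share reads. Sult1e1, which sulfates estrogens, rose (2.89 ± 0.95) but lost its call without WT_CT8 library 2, 3 or 4 or CryDKO_CT8 library 9 or 15 (adjusted p = 0.0531 to 0.0784) in edgeR's quasi-likelihood test, as Cyp2b13 did without WT_CT8 library 1, 2, 3 or 4 or CryDKO_CT8 library 9 or 16 or WT_CT16 library 5, 6, 7 or 8 or CryDKO_CT16 library 11 (adjusted p = 0.0529 to 0.0946). The count of 11 was 6 without WT_CT8 library 2 or 4 and 7 without CryDKO_CT8 library 9.

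Male-biased genes other than Mup were mixed. Of 22 tested members 5 fell and 1 rose (median -1.10), a share of falls close to that over all genes. Nudt7, a peroxisomal hydrolase of coenzyme A, fell from 214, 231, 213 and 300.3 CPM in WT to 40.6, 61.8, 46.5 and 57.004 CPM in CryDKO (-2.22 ± 0.32). Hsd3b5, a male-specific steroid dehydrogenase, had 19.5, 20.1, 7.38 and 25.4 CPM in WT and 0.0436, 0.539, 2.43 and 0.0991 CPM in CryDKO (-4.61 ± 1.49). Both separated the groups. Hsd3b2 (-1.58 ± 0.36) and the selenium-binding protein gene Selenbp2 (-2.14 ± 0.62) also fell. Dntt, the DNA polymerase known from antigen receptor joining, was the male-biased gene that rose (2.002 ± 0.37). Hsd3b5 lost its call without WT_CT8 library 2 or 4 or CryDKO_CT8 library 9, 10 or 16 (adjusted p = 0.0529 to 0.0724) and Selenbp2 without WT_CT8 library 4 (adjusted p = 0.0512) in edgeR's quasi-likelihood test. The count of falls was 2 without WT_CT8 library 4, 9 without CryDKO_CT16 library 13 and 10 without CryDKO_CT8 library 15, and 10 with library size alone.

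The growth hormone pathway itself changed in parts. Bcl6, a male-biased repressor known to oppose STAT5 at female-biased genes, had 45.9, 49.6, 23.7 and 43.5 CPM in WT and 12.1, 17.5, 10.5 and 16.8 CPM in CryDKO (-1.52 ± 0.35), with all CryDKO values lower. The receptor gene Ghr fell (-0.78 ± 0.20), as did Lifr, the receptor of leukemia inhibitory factor (-0.73 ± 0.16), and the hormone gene Igf1 (-0.63 ± 0.21), while the carrier gene Igfbp3 rose (2.11 ± 0.69). The remaining 10 of 15 tested members, among them Stat5a, Stat5b, Jak2 and Socs2, did not pass. Igf1 lost its call without WT_CT8 library 2, 3 or 4 or CryDKO_CT8 library 9 or 16 (adjusted p = 0.0511 to 0.109) and Igfbp3 without WT_CT8 library 1, 2 or 4 or CryDKO_CT8 library 10 (adjusted p = 0.0548 to 0.106) in edgeR's quasi-likelihood test, and Ghr and Igf1 were not called with the GC trend removed. The 4 Y-linked genes Eif2s3y (-1.05 ± 0.14), Uty (-1.04 ± 0.17), Kdm5d (-0.69 ± 0.20) and Ddx3y (-0.57 ± 0.15) fell too. With the GC trend removed only Eif2s3y among these 4 was still called, and Ddx3y turned to 0.13.

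**Figure D4:**
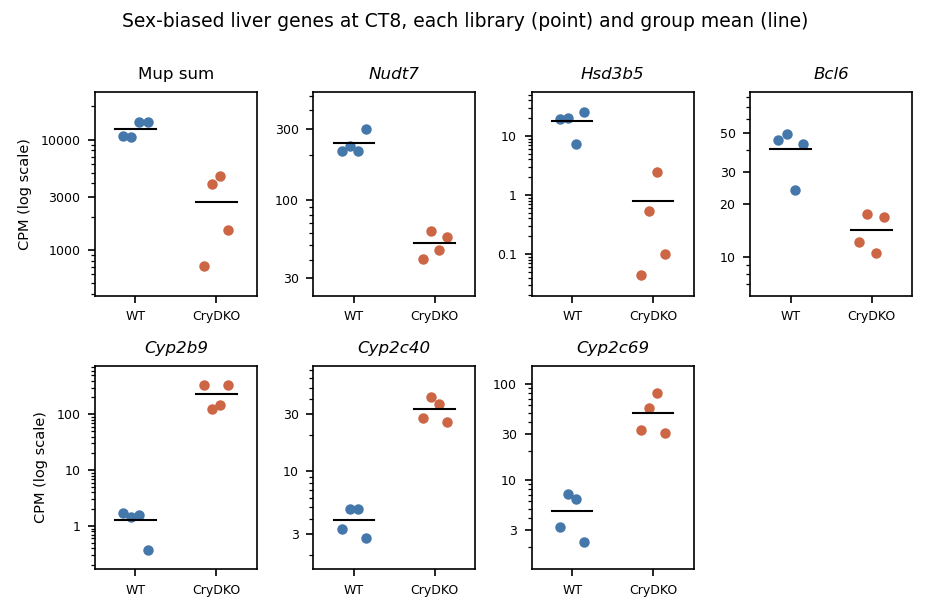
CPM on log axes of the sum over 24 Mup genes, of 3 male-biased genes (Nudt7, Hsd3b5, Bcl6) and of 3 female-biased genes, 1 point per library with group means as lines. The groups do not overlap in any panel, and the 4 CryDKO libraries spread widely for the Mup sum and Hsd3b5.

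Drug-metabolizing enzymes changed in both directions. Of 34 tested cytochromes P450 of families 1 to 3, 12 rose and 5 fell (median 0.52). Cyp2b10, the classical target of the receptor CAR, had 0.110, 0.248, 0.336 and 0.338 CPM in WT and 2.57, 47.8, 16.5 and 1.49 CPM in CryDKO (6.04 ± 1.30). All 4 CryDKO libraries were above the WT range. Cyp2a12, a steroid hydroxylase, rose (1.14 ± 0.19), while Cyp3a25 (-1.35 ± 0.20), Cyp2j9, which oxidizes arachidonic acid (-1.72 ± 0.25), and Cyp1a2, which clears caffeine (-1.06 ± 0.32), fell. The rise in 12 members became 7 without WT_CT8 library 2, and with library size alone 9 rose and 9 fell. Of 8 sulfotransferases Sult5a1 (-3.52 ± 0.38), Sult2a8 (-2.91 ± 0.49) and Sult1b1 (-0.81 ± 0.21) fell and Sult1a1, the main phenol sulfotransferase, rose (1.11 ± 0.21). Of 13 glucuronosyltransferases Ugt1a9 (3.42 ± 0.31) and Ugt1a1, which conjugates bilirubin (0.76 ± 0.22), were among 3 that rose (Ugt1a1 not with library size alone), and Ugt2b5 (-0.88 ± 0.22), Ugt2b35 (-0.68 ± 0.20) and Ugt2b36 (-0.64 ± 0.17) among 4 that fell. Ugt1a isoforms share their last exons, so reads of 1 may be counted for another or lost. With the GC trend removed 3 glucuronosyltransferases rose and 0 fell, and sulfotransferases turned from 2 rises and 3 falls to 4 rises and 2 falls, with Sult1b1 not called, while with library size alone 1 glucuronosyltransferase rose and 10 fell. Of 15 regulators of these enzymes 6 rose, among them Cebpa (0.64 ± 0.20), Cebpb (0.88 ± 0.18), Rxra (0.65 ± 0.17) and Foxa3 (0.67 ± 0.20), and 3 fell. These regulators lost their balance under both recalculations: 2 rose and 6 fell with library size alone, 2 rose and 3 fell with the GC trend removed, and Cebpa, Rxra and Foxa3 were called in neither. The count of falling regulators was 0 without WT_CT8 library 2 and 1 without WT_CT8 library 4 or CryDKO_CT8 library 9 or 10.

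Glutathione and NRF2 genes were more often higher than lower, while most platinum transport genes did not pass. Of 31 glutathione, metallothionein and NRF2 genes 13 rose and 2 fell (median 0.45). Nfe2l2, which encodes NRF2, was 1 of the 2 that fell, from 131, 141, 143 and 148 CPM in WT to 55.8, 73.8, 46.3 and 55.7 CPM in CryDKO (-1.28 ± 0.17). Keap1, whose product marks NRF2 for destruction, rose from 49.2, 44.2, 42.7 and 43.8 CPM to 105, 82.7, 84.8 and 78.8 CPM (0.97 ± 0.14). Neither gene overlapped between the groups. Abcc4, a pump of conjugates and nucleotides, rose (1.59 ± 0.41), as did glutathione synthetase (Gss, 0.81 ± 0.18) and the heme-degrading enzyme gene Hmox1 (1.46 ± 0.39), while the microsomal transferase gene Mgst1 fell (-0.87 ± 0.19). Abcc4 and Hmox1 overlapped between the groups. Scaled by library size alone, 8 of the 31 rose and 3 fell. Of 20 genes of platinum uptake, efflux and copper handling 3 rose and 2 fell (median -0.018). Abcb1a, a P-glycoprotein gene, rose (1.19 ± 0.35), and the copper chaperone gene of superoxide dismutase Ccs rose (0.67 ± 0.18), while the efflux pump gene Abcc5 (-0.93 ± 0.28) and the hepatic uptake gene Slco1b2 (-0.85 ± 0.26) fell. Slco1b2 lost its call without CryDKO_CT8 library 9 or 10 (adjusted p = 0.0514 to 0.0611) in edgeR's quasi-likelihood test. With library size alone 1 transport gene rose and 9 fell and neither Abcb1a nor Ccs was called, and with the GC trend removed Ccs and Slco1b2 were not called.

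DNA damage genes showed no single direction. Of 32 genes of the p53 pathway 5 rose and 3 fell (median -0.004), smaller shares than over all genes. Cdkn1a, the p21 gene and a standard p53 target, had 44.2, 23.6, 37.4 and 48.4 CPM in WT and 144, 39.9, 127 and 89.9 CPM in CryDKO, a rise of 1.38 ± 0.38 with overlap. Btg2, an antiproliferative gene, rose from 26.1, 16.7, 20.01 and 21.1 CPM to 117, 35.1, 56.4 and 52.8 CPM (1.64 ± 0.44). Mdm2 (-0.79 ± 0.20) and Mdm4 (-1.05 ± 0.21), both restrainers of p53, fell. The 5 rises were 2 without WT_CT8 library 2 or CryDKO_CT8 library 9 or 15 and 3 without WT_CT8 library 1, and 2 rose with the GC trend removed. Scaled by library size alone, 2 rose and 8 fell.

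Repair pathways split. In nucleotide excision repair, which removes platinum adducts, 10 of 25 genes rose and 5 fell (median 0.076). Ddb1, part of the damage sensor, rose from 135, 101, 114 and 105 CPM in WT to 215, 222, 215 and 194 CPM in CryDKO (0.89 ± 0.16). Its partner Ddb2 fell from 5.51, 7.40, 5.29 and 6.30 CPM to 2.005, 2.70, 2.60 and 3.92 CPM (-1.13 ± 0.27). Both separated the groups. Uvssa, needed for repair of transcribed strands, fell (-1.34 ± 0.19), as did Rpa3 (-1.32 ± 0.25), though not with the GC trend removed. The 10 rises were 6 without WT_CT8 library 2 and turned to 2 rises and 9 falls with library size alone, and the 5 falls were 3 with the GC trend removed. In crosslink and translesion repair 9 of 28 genes fell and 1 rose (median -0.36). Brca2, which loads the recombinase, fell from 7.53, 11.6, 6.67 and 6.34 CPM to 2.96, 3.37, 3.71 and 3.97 CPM (-1.20 ± 0.23), with no overlap. The translesion polymerase genes Poli (-1.22 ± 0.22) and Rev1 (-1.07 ± 0.24) and the checkpoint kinase gene Chek2 (-1.001 ± 0.30) fell as well, and Brca1 rose (0.95 ± 0.23). The 9 falls were 4 without CryDKO_CT8 library 9 and 5 without WT_CT8 library 1 or 2. Of 19 cell cycle genes Mcm3 (1.24 ± 0.34), Ccne1 (1.51 ± 0.40) and Ccnd3 (0.69 ± 0.16) rose and the mitotic gene Birc5 fell (-1.56 ± 0.31). With library size alone the list turned to 1 rise and 2 falls, Mcm3 and Ccnd3 not being called, and the 3 rises were 5 without CryDKO_CT8 library 16 and 6 without CryDKO_CT8 library 15.

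In glucose output and nitrogen disposal every called gene rose at CT8. Of 16 gluconeogenesis genes 12 rose and 0 fell (median 0.86), all 12 without overlap between the groups. Pcx, pyruvate carboxylase, the entry step, had 445, 335, 398 and 367 CPM in WT and 751, 585, 904 and 880.1 CPM in CryDKO (1.01 ± 0.20). Eno1 (1.34 ± 0.22), Pgam1 (1.20 ± 0.15), Mdh2 (0.84 ± 0.17) and the transaminase gene Gpt (0.97 ± 0.20) rose too. The 4 members that did not pass include Pck1 and G6pc, the enzymes most often taken as its regulated steps. Scaled by library size alone, 6 rose and 0 fell. Of 23 genes of the urea cycle and amino nitrogen 10 rose and 0 fell (median 0.28). Cps1, which fixes ammonia, had 1871, 1957, 1794 and 1942 CPM in WT and 2619, 4355, 4927 and 3001 CPM in CryDKO (0.98 ± 0.27). Ass1 (1.24 ± 0.36), Gls2 (1.12 ± 0.32), Nags (0.71 ± 0.14) and Aass (0.75 ± 0.19) also rose. Ass1 lost its call without CryDKO_CT8 library 10 (adjusted p = 0.0554) in edgeR's quasi-likelihood test, and the 10 rises were 6 without CryDKO_CT8 library 10, while 7 rose and 3 fell with library size alone. At CT16, where 9% of all genes tested rose and 9.15% fell, 3 of the 16 gluconeogenesis genes rose and 0 fell, and 2 of the 23 nitrogen genes rose and 2 fell (median -0.24).

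Glucocorticoid receptor targets and genes of the cAMP pathway gave different counts. Of 20 glucocorticoid targets 10 rose and 0 fell (median 0.68). Fkbp5, a feedback chaperone of the receptor, had 67.1, 64.001, 66.03 and 66.4 CPM in WT and 113, 138, 315 and 137 CPM in CryDKO (1.41 ± 0.27). Ddit4, an inhibitor of mTORC1, had 14.4, 9.01, 11.4 and 7.92 CPM in WT and 106, 60.5, 80.2 and 32.3 CPM in CryDKO (2.71 ± 0.51). In both the CryDKO values were all higher. Hsd11b1, which regenerates active glucocorticoid, rose as well (1.03 ± 0.18), and the 10 rises were 5 without WT_CT8 library 4. Of 15 cAMP and CREB genes 0 rose and 3 fell (median -0.017): the glucagon receptor gene Gcgr (-0.58 ± 0.15), Creb1 (-0.44 ± 0.12) and Crtc2 (-0.41 ± 0.13). Crtc2 lost its call without WT_CT8 library 2 or CryDKO_CT8 library 9 (adjusted p = 0.0864 to 0.113) in edgeR's quasi-likelihood test, and Creb1 turned to 0.0030 with the GC trend removed. Among 20 genes known to rise in fasting 6 rose and 2 fell. Lepr, the leptin receptor gene, had 1.25, 1.79, 0.881 and 0.788 CPM in WT and 88.6, 56.4, 11.95 and 29.6 CPM in CryDKO (5.28 ± 0.79). Igfbp1, an insulin-repressed binding protein gene, had 118, 57.9, 128 and 86.5 CPM and 1838, 214, 628 and 779.7 CPM (3.15 ± 0.70). Both separated the groups with a wide spread among CryDKO libraries. Igfbp2 (2.08 ± 0.30) and Pdk4, which blocks pyruvate oxidation (1.46 ± 0.36), rose, and the deacetylase gene Sirt1 fell (-0.81 ± 0.14).

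Lipid genes moved by branch. Of 24 genes of fatty acid synthesis and its sugar sensors 11 rose and 2 fell (median 0.69). Mlxipl, encoding the carbohydrate sensor ChREBP, was 1 of the 2 that fell, from 643, 891, 585 and 713 CPM in WT to 173, 438, 225 and 389.6 CPM in CryDKO (-1.21 ± 0.29), and Me1, malic enzyme, the other (-0.82 ± 0.21). Scd2 (1.39 ± 0.34) and Fads1 (0.80 ± 0.21), both desaturase genes, and Agpat2, of phosphatidic acid synthesis (0.82 ± 0.16), rose. The rises became 3 with library size alone, where Fads1 was not called, and 7 with the GC trend removed. Of 32 PPAR alpha and fatty acid oxidation genes 5 rose and 1 fell (median 0.31), smaller shares than over all genes. Plin5, which ties lipid droplets to mitochondria, rose (1.41 ± 0.18). On droplets Plin4 (-1.98 ± 0.39) and Fitm1 (-2.20 ± 0.44) fell and Hsd17b13 rose (1.03 ± 0.22). Of 23 cholesterol synthesis genes 3 rose and 0 fell (median -0.081). The 5 oxidation rises were 3 without WT_CT8 library 2 or 4 or CryDKO_CT8 library 9 or 16 and 8 without CryDKO_CT8 library 10, the 2 droplet falls of 17 genes 5 without CryDKO_CT8 library 9, and the 3 cholesterol rises 1 without CryDKO_CT8 library 16, while with library size alone 1 oxidation gene rose and 3 fell, 2 droplet genes rose and 4 fell, and 1 cholesterol gene rose and 4 fell.

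Bile acid and lipoprotein genes changed as well. Cyp7a1, the rate-limiting enzyme of bile acid synthesis and a clock-paced gene, had 317, 357, 514 and 654 CPM in WT and 75.9, 109.8, 194 and 130.2 CPM in CryDKO (-1.85 ± 0.33), with no overlap. Cyp8b1, which makes cholic acid, rose (1.12 ± 0.27), and so did Cyp2c70, the muricholic acid enzyme (1.04 ± 0.27), both with overlap. In all, 4 of 22 bile acid genes (18.2%) rose and 6 (27.3%) fell, against 18.7% and 20.3% over all genes, and the falls were 2 without CryDKO_CT8 library 9 or 10 and 3 without WT_CT8 library 2, 3 or 4 and 3 with the GC trend removed. Apoa4, an apolipoprotein gene raised in fatty liver, had 117, 145, 249.95 and 125 CPM in WT and 14158, 1829, 1801 and 3135 CPM in CryDKO (5.04 ± 0.81), the largest change of the 22 lipoprotein genes. Apom (1.32 ± 0.15), the HDL receptor gene Scarb1 (1.02 ± 0.19) and Apoa5 (0.76 ± 0.19) were among 8 that rose, and Apoc2 among 3 that fell (-1.08 ± 0.29), a count that was 1 without WT_CT8 library 1 or 3 or CryDKO_CT8 library 9, 15 or 16. The 8 rises were 5 with library size alone.

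Many genes of the machinery that makes secreted proteins rose. Of 30 genes that answer unfolded protein or integrated stress, 15 rose and 0 fell (median 0.64), and 9 rose with library size alone. Hspa5, the chaperone BiP, had 221, 198, 242 and 243 CPM in WT and 502, 429, 386 and 338 CPM in CryDKO (0.87 ± 0.19). The chaperone gene Hyou1 (1.26 ± 0.21), the stress sensor genes Eif2ak3 (1.34 ± 0.21) and Atf6 (0.75 ± 0.16) and Creld2 (1.12 ± 0.23) rose too. Of 26 genes of the translocon, signal peptidase and oligosaccharide transfer 13 rose and 2 fell (median 0.39). Sec61a1, the channel subunit, had 79.6, 72.9, 68.6 and 67.8 CPM in WT and 245, 197, 174 and 176 CPM in CryDKO (1.45 ± 0.21). Stt3a (1.06 ± 0.18), Ddost (0.99 ± 0.15) and Rpn2 (0.94 ± 0.16), subunits that attach sugar chains, rose as well, and Srp54a (1.97 ± 0.30) has near-identical copies. Each of these genes separated the groups. The 2 falls were 0 without WT_CT8 library 3 and 1 without WT_CT8 library 1 or 4 or CryDKO_CT8 library 9, 10 or 16, and 6 with library size alone. Of 18 heat shock and cold-inducible genes 5 rose and 0 fell (median 0.21), the rises being 2 without WT_CT8 library 2 and 3 without CryDKO_CT8 library 9, and with library size alone 0 rose and 4 fell.

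Among called genes, those of the acute phase mostly rose and those of the interferon response mostly fell. Of 31 acute phase genes 18 rose and 1 fell (median 0.85). Cd14, the co-receptor of endotoxin, had 1.10, 1.08, 1.30 and 0.750 CPM in WT and 21.01, 4.40, 4.92 and 7.14 CPM in CryDKO (3.14 ± 0.41). Lcn2, a siderophore-binding protein gene, had 149, 195, 345 and 398 CPM and 802, 512, 2065 and 1012 CPM (2.01 ± 0.46). Both were higher in every CryDKO library. Serpina3m rose (1.13 ± 0.22), in a family of close copies, and Saa3, the amyloid of macrophages and fat, fell (-0.98 ± 0.18). Of 39 interferon-stimulated genes 14 fell and 1 rose (median -0.19). Irf7, the amplifier of type I interferon, had 34.1, 52.4, 37.97 and 38.5 CPM in WT and 18.8, 20.7, 25.6 and 23.9 CPM in CryDKO (-0.87 ± 0.17). Stat2 (-0.90 ± 0.22), Irf9 (-0.66 ± 0.16), Xaf1 (-1.63 ± 0.37) and Rtp4 (-0.87 ± 0.18) fell too, and these 5 did not overlap. The 14 falls were 6 without WT_CT8 library 2, 8 without CryDKO_CT8 library 9 or 10 and 9 without CryDKO_CT8 library 15. At CT16, where 9% of all genes tested rose and 9.15% fell, 10 of the 39 interferon-stimulated genes fell and 0 rose. The 31 acute phase genes had 4 rises and 3 falls there.

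Other immune genes of the liver changed in smaller groups. Of 18 NF-kB genes 10 rose and 1 fell (median 0.72), and 4 rose and 3 fell with library size alone. Tnfaip3, the feedback enzyme A20, had 1.80, 2.44, 2.35 and 2.36 CPM in WT and 10.7, 5.44, 4.48 and 6.30 CPM in CryDKO (1.59 ± 0.26). Icam1 (1.05 ± 0.19), Rela (0.73 ± 0.16) and Nfkb1 (0.62 ± 0.14) rose, the last 2 not with library size alone. Of 34 complement and coagulation genes 13 rose and 2 fell (median 0.39), led by C3, Cfb (0.94 ± 0.17), F10 (0.89 ± 0.19), C2 (0.83 ± 0.16) and F12 (0.84 ± 0.19). The 2 falls were 0 without WT_CT8 library 1, 2, 3 or 4 or CryDKO_CT8 library 9 or 16, and with library size alone 8 rose and 10 fell. C4a, the sex-limited protein of male mice, is not 1 of these 2 falls. It fell from 108, 121, 35.2 and 73.02 CPM to 1.39, 4.72, 9.96 and 4.86 CPM (-4.03 ± 0.75) and shares sequence with C4b. Of 17 antigen presentation genes 7 rose and 3 fell, with H2-D1 (0.92 ± 0.18) and Tap2 (0.90 ± 0.16) higher and the activator Nlrc5 lower (-1.12 ± 0.31). The 7 rises were 4 without WT_CT8 library 4 or CryDKO_CT8 library 9 and 4 with the GC trend removed, the 3 falls 1 without WT_CT8 library 2, 3 or 4 or CryDKO_CT8 library 9 or 16, and with library size alone 2 rose and 4 fell. All 4 tested genes of NKG2D ligands and the Clec2 family fell: Raet1d (-4.21 ± 0.35), Raet1e (-3.83 ± 0.52), Clec2d (-1.73 ± 0.24) and Clec2h (-2.28 ± 0.72). Raet1d had 16.3, 14.2, 12.8 and 9.12 CPM in WT and 0.654, 0.314, 0.830 and 1.04 CPM in CryDKO. Raet1 genes are close copies, and Clec2h lost its call without WT_CT8 library 4 or CryDKO_CT8 library 9, 15 or 16 (adjusted p = 0.0532 to 0.0714) in edgeR's quasi-likelihood test.

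Liver zones and housekeeping pathways were set beside these. Of 17 periportal genes 11 rose and 1 fell (median 1.03). Cdh1, E-cadherin, had 13.1, 13.2, 14.3 and 16.9 CPM in WT and 48.9, 83.9, 32.9 and 32.1 CPM in CryDKO (1.79 ± 0.34), and Aldh1b1, a mitochondrial aldehyde dehydrogenase gene, rose (2.18 ± 0.52). Of 19 pericentral genes 2 rose and 3 fell (median -0.23), smaller shares than over all genes, with 1 rise and 10 falls with library size alone and 1 rise and 1 fall with the GC trend removed. The single periportal fall was Igf1, treated above, and the 3 pericentral falls were 1 without WT_CT8 library 1, 2, 3 or 4 or CryDKO_CT8 library 9 and 5 without CryDKO_CT8 library 16. Of 36 nuclear-encoded respiratory chain genes 17 rose and 3 fell (median 0.40), among them Ndufv1 (0.90 ± 0.17), Uqcrc1 (0.85 ± 0.16) and Cyc1 (0.79 ± 0.15), with Ndufa4 lower (-1.28 ± 0.21). Of 39 ribosomal protein genes 10 rose and 3 fell (median 0.059), Rpl8 (0.85 ± 0.16) and Rpl3 (0.77 ± 0.15) higher and Rps24 lower (-1.28 ± 0.26). With library size alone these became 7 rises and 8 falls in the respiratory chain and 2 and 10 in the ribosome, where 6 rose and 7 fell with the GC trend removed. The 3 respiratory falls were 1 without WT_CT8 library 4 or CryDKO_CT8 library 9 or 16, and the 10 ribosomal rises 4 without WT_CT8 library 2, 5 without CryDKO_CT8 library 15 and 6 without CryDKO_CT8 library 10. In iron and heme handling 7 of 24 genes rose and 2 fell (rises: 4 without WT_CT8 library 2, and 3 rises and 5 falls with library size alone). Hamp2, a hepcidin-like gene, had 13.3, 12.6, 11.1 and 6.27 CPM in WT and 104, 655, 56.4 and 60.97 CPM in CryDKO (4.34 ± 0.95). In NAD metabolism 2 of 22 genes rose and 5 fell, with the aldehyde oxidase gene Aox3 (-1.32 ± 0.31) and the nicotinamide riboside kinase gene Nmrk1 (-1.03 ± 0.17) lower, the rises being 4 without WT_CT16 library 8. By library size alone 2 NAD genes rose and 10 fell.

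Of 10 tested noncoding RNAs on the list of nuclear and imprinted RNAs 5 fell, 1 rose and 4 did not pass (median -0.81), a share of falls near the 51.3% over all long noncoding RNA genes. Meg3, the imprinted RNA of the Dlk1 region, had 8.12, 7.92, 3.73 and 5.03 CPM in WT and 0.523, 0.629, 0.941 and 0.397 CPM in CryDKO (-3.32 ± 0.40). Rian, of the same region (-3.13 ± 0.63), Kcnq1ot1, which silences the Kcnq1 region (-2.26 ± 0.50), and Snhg11 (-4.56 ± 0.66) fell too, all without overlap. H19, an imprinted RNA of fetal liver, went the other way from 0.0735, 0.0309, 0.0420 and 0 CPM to 0.872, 0.539, 0 and 1.24 CPM (4.02 ± 0.96), with overlap. The 5 falls were 8 without CryDKO_CT8 library 9. The falls stand beside the lower share of all long noncoding RNA reads in CryDKO at CT8 given above, whose part in them was not tested.

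Several of the largest single rises belong to none of these groups. Smpdl3b, a lipid phosphodiesterase gene that restrains innate signalling, had 0.367, 0.186, 0.461 and 0.338 CPM in WT and 11.5, 26.2, 21.2 and 16.01 CPM in CryDKO (5.80 ± 0.32). Nat8f7, of an acetyltransferase family with close copies, had 0.110, 0.124, 0.0420 and 0.150 CPM in WT and 2.22, 19.8, 15.4 and 13.8 CPM in CryDKO (6.81 ± 0.67). The lowest CryDKO value of each was well above the highest WT value. Tdg-ps2, a pseudogene close to Tdg (7.42 ± 0.44), Lrtm2 (5.75 ± 1.59), the protease gene Tmprss4 (5.26 ± 0.69), the anion exchanger gene Slc4a9 (4.61 ± 1.11), the tubulin gene Tubb2a (3.76 ± 0.66) and the actin regulator gene Cyfip2 (3.67 ± 0.34) rose as well. The peptide transporter gene Slc15a2 fell (-3.63 ± 0.95).

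Markers of other liver cells differed by type, with collagen and keratin genes among those called. Called higher were 33.3% of tested stellate and of cholangiocyte markers, 15.4% of macrophage and 0% of endothelium markers, against 18.7% of all genes. In bulk RNA, fewer cells of a type and less RNA per cell cannot be told apart. Of 12 stellate cell and fibroblast markers 4 rose and 0 fell (median 0.82), and their sum lay at 149 to 188 CPM in WT and 169.9 to 363 CPM in CryDKO. Col1a1 had 1.87, 2.57, 3.10 and 3.98 CPM in WT and 13.9, 9.30, 4.37 and 7.73 CPM in CryDKO (1.62 ± 0.35), and Col1a2 rose without overlap (1.42 ± 0.24). The stellate rises were 7 without CryDKO_CT8 library 15, and 2 with library size alone. Of 12 sinusoidal endothelium markers 0 passed edgeR's quasi-likelihood test, with 0 at an unadjusted p under 0.05 and 0 by DESeq2. Pecam1 was called higher without CryDKO_CT8 library 16, and Bmp2 was called lower in a fit of the CT8 libraries alone. Their sum lay at 117 to 171 CPM in WT and 103 to 178 CPM in CryDKO. Of 13 macrophage markers 2, C1qa (0.83 ± 0.29) and C1qb (1.04 ± 0.32), rose, and 0 rose with library size alone or with the GC trend removed. Their sum lay at 82.5 to 111 and 93.9 to 227 CPM. The macrophage rises were 0 without CryDKO_CT8 library 9 and 1 without WT_CT8 library 1, 3 or 4 or CryDKO_CT8 library 10. Krt19, a bile duct keratin gene, rose (2.10 ± 0.43), 1 of 2 rises among 6 tested cholangiocyte markers (rises: 1 without WT_CT8 library 1 or 2). Of 11 T and NK cell markers 10 and of 7 B cell markers 5 were too low to test, and of 6 tested neutrophil markers 0 passed edgeR's quasi-likelihood test, with 0 at an unadjusted p under 0.05 and 0 by DESeq2. Markers of pancreas, fat, kidney and gut had 1 rise (Cela2a, 2.26) and 1 fall among 5 tested. The fall was that of Cfd, adipsin, made by fat cells, from 1.07, 0.248, 0.797 and 0.750 CPM to 0, 0.0449, 0 and 0 CPM. The fat markers Adipoq and Plin1 were too low to test. The part of other cells in the results above was not tested.

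The same genotype difference was also measured at CT16, in 8 libraries that share none with CT8. There 2629 genes (18.2%) were called, with 9.15% of those tested lower, fewer than the 5649 at CT8. Called at both times in the same direction were 1840 genes, 32.6% of the CT8 calls and 70% of the CT16 calls, and 5 genes were called in opposite directions. Of the CT8 calls 92.7% had the same sign at CT16. The same share over all tested genes is not given here. The trend on GC content given above was alike at both times, and its part in the shared signs was not tested. A call at 1 time only does not show a difference between times. The test of that difference, the interaction of genotype and time, called 6 genes (0.0414% of those tested, 0.0138% with a positive and 0.0276% with a negative CT8 minus CT16 difference), 4 of which met the rule for named genes. Sult5a1 changed by -3.52 ± 0.38 at CT8 and -0.54 ± 0.33 at CT16. Ppib, cyclophilin B of the endoplasmic reticulum, changed by 1.21 ± 0.19 and -0.51 ± 0.18, Tnfaip3 by 1.59 ± 0.26 and -0.50 ± 0.26, and Cyp2j9 by -1.72 ± 0.25 and 0.34 ± 0.24. Adjusted p of edgeR's quasi-likelihood test for the interaction was 0.0260 for Ppib and 0.0398 for each of the others. Without WT_CT16 library 8, 568 genes were called for the interaction, and the number was 0 to 568 over all libraries left out in turn. Library 8 had a long noncoding RNA share of 0.985%, against 0.422% to 0.535% in the other WT libraries at CT16. Whether its makeup bears on the count was not tested. Large changes without an interaction call include Cyp2b9 (7.50 and 7.01), Smpdl3b (5.80 and 6.18), Raet1d (-4.21 and -5.00) and Arntl (2.01 and 2.72). Apoa4 (5.04 and 1.35) and Lrtm2 (5.75 and 0.76) had smaller values at CT16, but the interaction was not called for them.

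**Figure D5:**
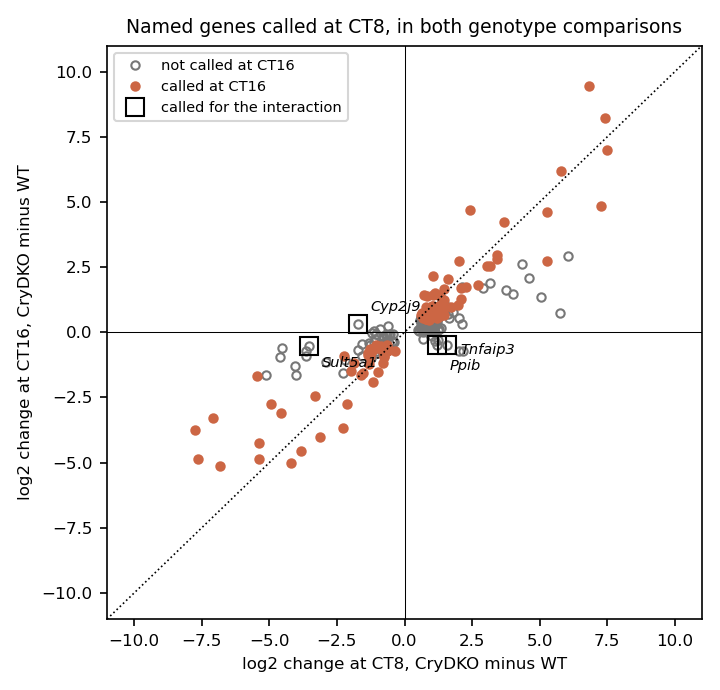
Log2 change (CryDKO minus WT) at CT8 and at CT16 of 250 named genes called at CT8, with Cyp2b13 left out because it had 0 reads in WT at CT8. Filled points (113) were also called at CT16, squares mark the 4 named genes called for the interaction, the dotted line marks equal changes, and 237 points have the same sign at both times.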

How the data were processed

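The deposited table holds raw read counts of 40840 gene symbols in 16 libraries. Per the submitters' processing notes, Trimmomatic 0.35 trimmed the reads, STAR 2.5.3 aligned them to GRCm39 and they were counted with HTSeq 1.99.2. The strand setting is not given in the sources used here, so overlapping and antisense genes are uncertain, and near-identical copies may share or lose reads. The authors' normalized counts were not used, because their columns for CryDKO at CT8 hold each other's libraries. Columns were matched to groups by name, and library numbers are those of the column names.

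The counts were fitted in R 4.3.3 with edgeR 4.0.16: expression filter, trimmed mean of M values, robust quasi-likelihood fit of 4 group means over all 16 libraries, and Benjamini-Hochberg adjustment over 14484 genes at 0.05. Library totals, which set the counting precision, are in the results. Named genes were clock genes, the 15 largest rises and falls without overlap, the 10 most abundant called genes, up to 5 members per list by adjusted p, and interaction genes, and some of these are not reported here. The groups, gene lists and rules were chosen with earlier results of these data known. No 2 libraries of a group agreed within counting noise (chi-square per degree of freedom 20.2 to 136). On simulated counts with known changes at CT8 over 14163 genes, the share called was 94% at 4-fold, 68% at 2-fold and 8% at 1.5-fold, and 8 of 13963 unchanged genes were called. Each fold was given to 50 genes, drawn from those with a mean of at least 50 reads. With so few changed genes the adjusted p is stricter than in the data, where 5649 genes were called. Transcript classes were matched by symbol to RefSeq for 14314 tested genes and GC content to GENCODE M21 transcripts for 12500 of 12700 protein-coding genes. DESeq2 1.42.0, limma 3.58.1 with and without quality weights, other scalings and filters, a test against 1.5-fold and leaving out each library were the alternatives. The GC correction and the fit of protein-coding genes only were added after seeing the data.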

Additional observations from a re-analysis of the deposited data

Results flagged for a closer look

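Among 426 groups of 4 values (213 genes in each genotype at CT8) 20 had 1 library far from the other 3, which chance gives in about 1 in 20 groups. Of these 16 lay in CryDKO and 4 in WT, and libraries 9 and 10 held 6 and 5. In CryDKO library 9, Apoa4 stood at 14158 CPM against 1801 to 3135 in the others, Cd14 at 21.01 against 4.40 to 7.14 and Tdg-ps2 at 18.0 against 9.13 to 10.3. Of its clock genes, Hlf stood at 31.3 CPM against 58.1 to 63.2, Usp2 at 53.5 against 74.4 to 77.9 and Wee1 at 27.5 against 18.6 to 20.03. In CryDKO library 10, Hamp2 stood at 655 CPM against 56.4 to 104, Slc4a9 at 40.3 against 5.01 to 10.7, Clec2h at 2.34 against 0.149 to 0.305 and Cyp2a5 at 494 against 394 to 399. Cfd, at 0.0449 against 0 in the others, was flagged at the floor of counting, where any read sets a library apart.

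In CryDKO library 15, Fkbp5 stood at 315 CPM against 113 to 138, Mup11 at 15.7 against 0.349 to 1.64 and Ugt1a9 at 113 against 81.8 to 83.8. In CryDKO library 16, Uvssa stood at 16.3 CPM against 10.6 to 11.3 and Mup-ps16 at 0.595 against 0 to 0.0449. In WT, library 1 had Mup-ps16 at 48.2 CPM against 26.1 to 27.1 and Tnfaip3 at 1.80 against 2.35 to 2.44, library 2 had Eif2ak3 at 7.55 against 9.001 to 9.27, and library 3 had Aox3 at 310.2 against 367 to 376.

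The genotype difference itself differed between CT8 and CT16 by edgeR's interaction test for Ppib (adjusted p = 0.0260) and for Sult5a1, Cyp2j9 and Tnfaip3 (adjusted p = 0.0398 each).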

How the results depend on the processing

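The number of genes called at CT8, 5649 as reported, was 5998 with DESeq2 and 5816 with limma voom, and it stayed within 4274 (without WT_CT8 library 2) to 6112 (without WT_CT16 library 8) when each library was left out in turn. A test against a 1.5-fold change called 1349 genes, 401 higher and 948 lower. With library size alone 961 were higher and 5127 lower. The 10 most abundant genes took a larger share of reads in CryDKO, and the part of that share in this shift was not tested. At CT16, 2629 calls became 289 against 1.5-fold and 1498 with the GC trend removed, and 1821 to 2742 with a library left out.

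The interaction count of 6 depended on most choices: 134 with DESeq2, 1 with limma voom, 940 with quality weights, 0 with library size alone, 30 without a filter on low counts, 1 with a mean of at least 50 reads, 0 against 1.5-fold, 2 with protein-coding genes only, and 0 to 568 with a library left out. The cause was not tested. Of 251 called named genes, 35 lost their call without at least 1 library, 40 with library size alone and 34 with the GC trend removed. With the GC trend removed the log2 change of Creb1 turned to 0.0030 and that of Ddx3y to 0.13. On simulated counts only 8% of 1.5-fold changes were called, so changes of that size may be missed with 4 libraries a group. The share itself need not hold for the data, because the simulation changed far fewer genes than were called at CT8. No paired analysis was possible because the count columns carry a running number and not the replicate numbers of the sample titles.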
